A study of Mus musculus with 14 samples.

Results

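The genes described here are 10 transcription factors and Notch pathway genes of the presomitic mesoderm and tail bud: *T*, *Tbx6*, *Msgn1*, *Hes7*, *Dll3*, *Cdx1*, *Cdx2*, *Cdx4*, *Nkx1-2* and *Ripply2*. They are 10 of the 24454 genes in a table of read counts, and were chosen by their rise in single libraries of S9-JAG1+ cells, so their values in that population are a description and were not tested. The table holds 14 RNA-seq libraries of mesenchymal cells sorted by flow cytometry from mouse forelimb buds, to compare progenitor populations before and during chondrogenesis. Each library was made from pooled forelimb buds of embryos that carry an EGFP reporter in the *Sox9* locus (*Sox9* IRES-EGFP) on a mixed Swiss Albino background, and the reporter was present in all populations compared. Dead cells and cells with endothelial, blood and epithelial surface antigens were gated out in every sort.

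At E10.5 (E for embryonic day), S9-JAG1+ cells were sorted as *Sox9*-EGFP negative, positive for the Notch ligand JAG1 and negative for SCA-1 (3 libraries). S9-Pαhi cells were negative for EGFP, JAG1 and SCA-1 with high PDGFRα (3 libraries). Osteo-chondrogenic progenitors (OCPs) were EGFP positive with high PDGFRα (3 libraries), and S9-SCA-1+ cells were EGFP and JAG1 negative and SCA-1 positive (2 libraries). Chondroblasts, EGFP-positive *Col2a1*-expressing cells with high PDGFRα, came from E11.5 (3 libraries), so that stage and population cannot be told apart for them. The 3 EGFP-negative populations were all sorted from PDGFRα-positive cells. The labels number the replicates but do not say whether they came from separate litters, so p-values measure the spread between these libraries.

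The tail bud and the presomitic mesoderm form the posterior end of the embryo. Progenitors there, kept by WNT and FGF signals and by T and CDX proteins, feed cells into the presomitic mesoderm, where TBX6 and MSGN1 commit them to paraxial mesoderm. A Notch-dependent segmentation clock, with HES7 as its oscillating repressor, then divides the tissue into somites. Limb bud mesenchyme derives from lateral plate mesoderm and not from this tissue, while the muscle precursors that enter the limb derive from somites.

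The promoters of 4 members that peaked in the same S9-JAG1+ library are shown because they let the shared rise be read beside the sequence (RefSeq windows on GRCm38.p6, 250 bases before to 50 bases after the transcription start, written 5′ to 3′ along the gene). They lie at chr17:8434173-8434472 (*T*, plus strand), chr7:126781233-126781532 (*Tbx6*, plus strand), chr12:11208899-11209198 (*Msgn1*, minus strand) and chrX:103321148-103321447 (*Cdx4*, plus strand). Capitals mark exact matches, on either strand, to the T-box core sites AGTGTG and AGGTGT, the RBPJ core TGGGAA, the TCF/LEF core CTTTGA, the CDX core TTTATG or the TATA box TATAAA.
T: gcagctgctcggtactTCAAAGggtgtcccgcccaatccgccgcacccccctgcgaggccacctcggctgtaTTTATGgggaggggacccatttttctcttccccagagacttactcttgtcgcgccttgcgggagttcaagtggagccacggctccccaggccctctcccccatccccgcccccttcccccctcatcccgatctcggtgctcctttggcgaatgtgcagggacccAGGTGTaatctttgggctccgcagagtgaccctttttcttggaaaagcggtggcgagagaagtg
Tbx6: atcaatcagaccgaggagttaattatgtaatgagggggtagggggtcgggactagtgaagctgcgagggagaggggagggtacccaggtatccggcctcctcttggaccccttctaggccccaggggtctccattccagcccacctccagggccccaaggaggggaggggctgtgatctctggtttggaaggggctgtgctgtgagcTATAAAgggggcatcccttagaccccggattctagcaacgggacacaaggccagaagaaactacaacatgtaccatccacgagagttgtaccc
Msgn1: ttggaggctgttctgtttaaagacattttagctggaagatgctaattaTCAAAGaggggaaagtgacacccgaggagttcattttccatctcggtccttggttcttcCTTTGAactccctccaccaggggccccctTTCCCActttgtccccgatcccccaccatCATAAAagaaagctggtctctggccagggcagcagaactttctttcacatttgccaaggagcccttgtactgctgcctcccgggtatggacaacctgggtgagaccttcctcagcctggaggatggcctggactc
Cdx4: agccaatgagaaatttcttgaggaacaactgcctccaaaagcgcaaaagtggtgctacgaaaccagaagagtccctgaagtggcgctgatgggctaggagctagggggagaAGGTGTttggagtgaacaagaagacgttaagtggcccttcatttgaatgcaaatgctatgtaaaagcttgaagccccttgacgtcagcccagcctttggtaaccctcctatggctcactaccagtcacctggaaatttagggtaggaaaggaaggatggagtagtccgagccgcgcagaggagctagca

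The *T* window held AGGTGT, the TCF/LEF core and the CDX core, the *Msgn1* window held the RBPJ, TCF/LEF and CDX cores, the *Tbx6* window held a TATA box, and the *Cdx4* window held AGGTGT. No match overlapped another in these windows. Of the 9 members with a window that could be read, 4 held the CDX core (*T*, *Msgn1*, *Hes7* and *Ripply2*), against 11.9% of all 32817 windows. The other motifs were in 1 or 2 of the 9 each: AGGTGT in 2 (13.7% of all windows), AGTGTG in 1 (17.1%), the RBPJ core in 2 (25.6%), the TCF/LEF core in 2 (16% of all) and the TATA box in 1 (13.6%). No motif was shared by the 4 windows printed above, and the *Cdx2* and *Nkx1-2* windows held none of the 6. A match here is a match of letters only.

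Libraries held 20316583 to 29162751 counts (median 25554498), and levels are given as CPM, the counts divided by scaled library totals. Up to 3 counts in a library, 0.101 to 0.149 CPM, were taken as the limit below which a level cannot be told from absence, a limit that covers counting error only. Of the genes used for gating, *Jag1* was at 5323, 7092 and 9174 counts in S9-JAG1+ libraries and at 234 to 3492 elsewhere. *Sox9* had 9095 to 16677 counts in OCPs and chondroblasts and 208 to 1582 elsewhere, and *Ly6a*, which encodes SCA-1, had 96 and 87 in S9-SCA-1+ libraries and 1 to 11 elsewhere. *Pdgfra*, whose protein was used in the gates of all populations, had 7233 to 14096 counts in S9-Pαhi cells, 5747 to 6255 in S9-JAG1+ cells and 1280 and 674 in S9-SCA-1+ cells. It had 15687 to 20537 counts in OCPs and 19689 to 28237 in chondroblasts. Lateral limb mesenchyme markers (*Prrx1*, *Prrx2*, *Tbx5*, *Twist1*, *Msx1* and *Pdgfra*) had reads in every library, from a summed 429.8 CPM in S9-SCA-1+ replicate 3 to 3436 CPM in S9-Pαhi replicate 2. Libraries stood apart within their populations: S9-JAG1+ replicate 3 in the genes described here, and S9-SCA-1+ replicate 3 in embryonic globins (31601 counts of *Hbb-y*, against 1163 in S9-SCA-1+ replicate 2).

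*T* (Brachyury, Entrez 20997, chr17:8434423-8442496), the T-box factor that defines posterior mesoderm and its progenitors, had the highest level per gene length of the 10 in S9-JAG1+ cells. The study also reported increased *T* in S9-JAG1+ cells, and places its normal expression in posterior or distal mesenchyme of the limb bud. S9-JAG1+ replicates 1, 2 and 3 held 125, 247 and 601 counts, or 5.35, 10.4 and 23.8 CPM. No other library had more than 12 counts, and *T* was at 0.201 ± 0.192 CPM in S9-Pαhi cells, 0.282 ± 0.197 in OCPs and 0.225 ± 0.0834 in chondroblasts (SD, n = 3 each) and at 0.371 ± 0.0796 CPM in S9-SCA-1+ cells (SD, n = 2). All 3 S9-JAG1+ libraries therefore lay above all 11 others, and replicate 3 was at 2.3 times the next. In bulk libraries like these, fewer cells with a transcript and less RNA per cell cannot be told apart.

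*Tbx6* (Entrez 21389, chr7:126781483-126785548), the T-box factor that directs cells into paraxial mesoderm, was high in a single library. It stood at 33, 21 and 141 counts (1.41, 0.88 and 5.59 CPM) in S9-JAG1+ replicates 1, 2 and 3. Elsewhere it ranged from 10 counts in S9-SCA-1+ replicate 2 to 40 counts in OCP replicate 2, which at 1.9 CPM was above S9-JAG1+ replicates 1 and 2. The S9-JAG1+ libraries thus overlapped the rest, with replicate 3 at 3.96 times the next S9-JAG1+ library.

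*Msgn1* (mesogenin 1, Entrez 56184, chr12:11208382-11208948), a bHLH factor of the presomitic mesoderm, had 5, 5 and 75 counts in S9-JAG1+ replicates 1, 2 and 3 (0.214, 0.21 and 2.97 CPM). Replicate 3 was at 13.9 times replicate 1, and the 11 libraries of other populations held 0 to 8 counts each. S9-JAG1+ replicates 1 and 2 were below S9-Pαhi replicate 3 (8 counts, 0.399 CPM).

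*Cdx4* (Entrez 12592, chrX:103321398-103330224), the caudal-type homeobox gene that is largely restricted to the posterior end of the embryo, gave the plainest contrast. No read was counted in S9-JAG1+ replicates 1 and 2, and 77 were counted in replicate 3 (3.05 CPM), at least 23.8 times the level that 3 counts would give in either. Outside the population, *Cdx4* had 4 counts in S9-Pαhi replicate 2, 1 in OCP replicate 2 and 0 in the other 9 libraries.

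*Cdx2* (Entrez 12591, chr5:147300900-147307249), a caudal-type gene of the tail bud that also patterns the hindgut, was instead in all 3 S9-JAG1+ libraries, at 29, 40 and 96 counts (1.24, 1.68 and 3.81 CPM). The 11 other libraries held 8 counts in all and at most 3 each. All 3 S9-JAG1+ libraries were thus above the 3-count limit and no other library was, so no fold is given.

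*Cdx1* (Entrez 12590), which is also expressed in the early limb bud and in dermomyotome, did not follow the other members. Its counts were 35, 44 and 76 in S9-JAG1+ cells, and 1.5, 1.84 and 3.01 CPM set these libraries among S9-Pαhi cells (2.07 ± 0.574 CPM, SD, n = 3) and below S9-SCA-1+ replicate 3 (3.35 CPM). OCPs were lower, at 0.646 ± 0.319 CPM, and chondroblasts lower again, at 0.138 ± 0.0871 CPM (SD, n = 3 each). No S9-JAG1+ library exceeded all libraries of the other populations.

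*Nkx1-2* (Entrez 20231, chr7:132596239-132599637), a homeobox gene of the caudal progenitor zone, had 24, 18 and 33 counts in S9-JAG1+ cells (1.03, 0.754 and 1.31 CPM) and at most 3 in any other library. No other library passed the 3-count limit, so no fold over them is given. Replicate 3 was at 1.27 times the next S9-JAG1+ library, the smallest such ratio of the members with reads. Of the exonic bases of *Nkx1-2*, 16.6% overlap an antisense gene, and whether the counting used strand is not given in the sources used here.

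Among the clock genes, *Hes7* (Entrez 84653, chr11:69118906-69124054), the repressor at the core of the oscillator, was at 2.01, 2.81 and 4.36 CPM in S9-JAG1+ cells from 47, 67 and 110 counts. It was also present in every other library, at 0.841 to 1.69 CPM, so that the lowest S9-JAG1+ library exceeded the highest other library by little. An antisense gene overlaps 12.9% of its exonic bases.

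*Dll3* (Entrez 13389, chr7:28293555-28301785), a divergent Delta protein that dampens Notch signalling in presomitic cells, had 30, 26 and 238 counts in S9-JAG1+ replicates 1, 2 and 3 (1.28, 1.09 and 9.43 CPM). Chondroblasts reached similar levels, with 198, 138 and 214 counts (6.66, 4.72 and 8.4 CPM), and OCPs had 61, 56 and 107 counts (2.47, 2.66 and 3.87 CPM). S9-JAG1+ replicates 1 and 2 were below all 6 OCP and chondroblast libraries, and replicate 3 was above all of them, at 7.35 times replicate 1.

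*Ripply2* (Entrez 382089, chr9:87015537-87020441), which ends TBX6 activity where a somite boundary forms, went against the rule by which it was listed. It had no read in any S9-JAG1+ library and 0 to 2 counts in each of the other 11, at or under the limit throughout, so no fold is given.

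**Figure D1:**
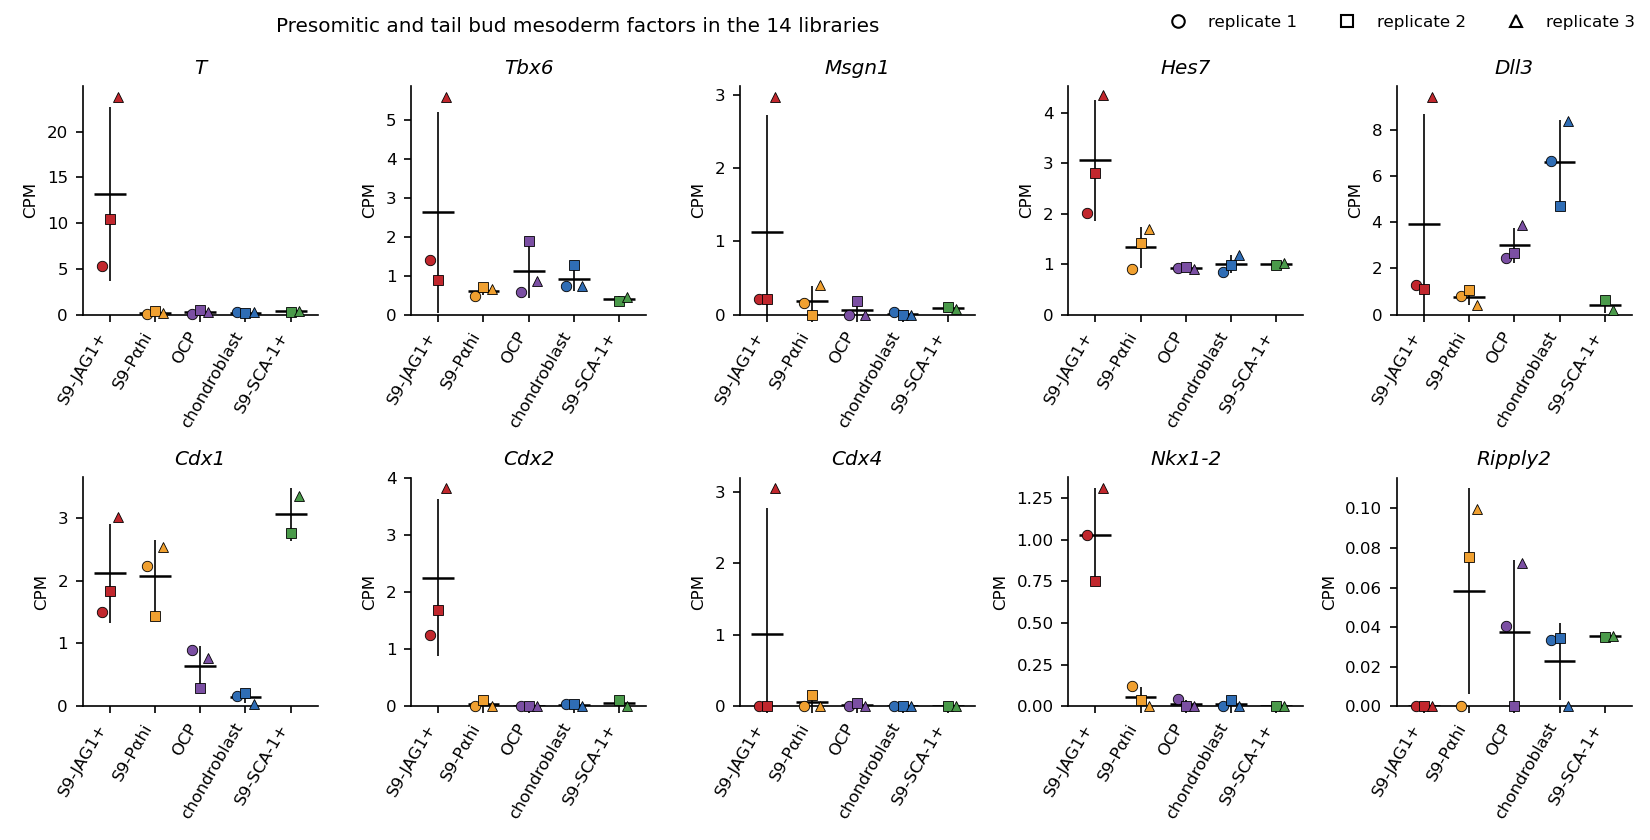
Level of each of the 10 members (CPM, separate linear axes from 0) in each library, by population; symbols mark the replicate number, horizontal lines the mean and vertical lines the SD, cut at 0. *T*, *Hes7*, *Cdx2* and *Nkx1-2* are highest in all 3 S9-JAG1+ libraries, *Tbx6*, *Msgn1* and *Cdx4* in replicate 3 alone, and *Dll3* is also high in OCPs and chondroblasts.

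The 10 members thus fell into separate patterns. *T*, *Hes7*, *Cdx2* and *Nkx1-2* were above all 11 other libraries in each of the 3 S9-JAG1+ libraries, *Tbx6*, *Msgn1*, *Dll3* and *Cdx4* in replicate 3 alone, and *Cdx1* and *Ripply2* in none. Scaled to gene length, the mean S9-JAG1+ levels ran from 6.44 ± 4.67 RPKM (CPM per kilobase of gene model; SD, n = 3) for *T* over 3.17 ± 1.24 for *Hes7* and 2.00 ± 2.81 for *Msgn1* to 0.541 ± 0.146 for *Nkx1-2*. Neighbours in that order did not differ beyond their SD. For *Msgn1*, *Dll3* and *Cdx4* the SD exceeded the mean, since 1 library held most of the reads.

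In the comparison that chose them, S9-JAG1+ cells against the mean of the other 4 populations, 7 of the 10 members passed the filter on low counts, and all 7 were called (here, an adjusted p up to 0.1 with a log2 fold change of 1.2 or more in size). Of all 15125 genes tested, 2.88% were called higher and 7.7% lower. The count of members is fixed by their choice, and nothing is read from it. The log2 fold changes were 5.62 ± 0.39 (SE) for *T*, 1.89 ± 0.44 for *Tbx6*, 1.53 ± 0.22 for *Hes7*, 1.32 ± 0.51 for *Dll3* and 1.27 ± 0.31 for *Cdx1*, and *Cdx2* and *Nkx1-2*, at or under the 3-count limit in all other libraries, are given no fold. The mean over populations in these fold changes is taken on the log scale, so a population with a low level pulls it down. As ratios of plain CPM means, *Dll3* was only at 1.46 and *Cdx1* at 1.43. For *Dll3* the chondroblast mean (6.59 CPM) was above the S9-JAG1+ mean (3.94 CPM). The call for *Cdx1* arose from low levels in OCPs and chondroblasts: the S9-JAG1+ mean of 2.12 CPM was near that of S9-Pαhi cells and below that of S9-SCA-1+ cells (3.06 CPM). Without S9-JAG1+ replicate 3, only *T*, *Cdx2* and *Nkx1-2* were called. The log2 fold change then was 4.88 for *T*, 0.70 for *Tbx6*, 0.93 for *Cdx1* and -0.41, the opposite direction, for *Dll3*, and *Hes7* fell just short of the fold limit.

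Single S9-JAG1+ libraries were also set against their own replicates. A gene was counted as in excess in a library where it had at least 10 counts and at least 2 times the CPM of both other S9-JAG1+ libraries. In replicate 3, 129 of 13679 genes with at least 10 counts were in excess (0.943%), and among them were 6 of the 9 members with that many counts: *T*, *Tbx6*, *Msgn1*, *Dll3*, *Cdx2* and *Cdx4*. In replicate 1, 206 genes (1.52%) were in excess, and in replicate 2, 99 genes (0.725%), in each case with 0 of the 7 members that had 10 counts there. The members were chosen for this rise, so the share is a description. The share varied between libraries of other populations too, from 0.371% in chondroblast replicate 3 to 3.35% in OCP replicate 2 (469 genes), with 0.794% in S9-Pαhi replicate 2 and 1.52% in S9-SCA-1+ replicate 2. S9-SCA-1+ cells have 2 libraries, so a gene there had to exceed only 1 other, a looser measure. Outside the population, the same measure listed *Tbx6* in OCP replicate 2, *T* in S9-Pαhi replicate 2 (11 counts, against 1 and 3) and *Dll3* in S9-SCA-1+ replicate 2 (18 against 5).

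Each S9-JAG1+ library had its own genes in excess. Replicate 1 was led by *Gata5* (136, 21 and 11 counts in replicates 1, 2 and 3, 6.62 times the next library) and *Wnt2* (356, 40 and 59 counts, 6.52 times). The smooth muscle actin gene *Acta2* (91, 17 and 12 counts) and the homeobox gene *En1* (169, 37 and 33 counts) were high there too. In replicate 2, *Carmil2* (45, 139 and 49 counts) and the immediate early gene *Fosb* (784, 2114 and 561 counts) were at 3 and 2.64 times the next library. Replicate 3 was led by *Ct55*, *Slc15a2*, *Dll1* and *Hoxb1* (0, 0 and 53 counts), with *Dll3* next.

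Other genes of the tail bud and its growth zone were read from a list of 18 that holds no member. *Wnt3a*, the WNT ligand that maintains the tail bud, had 0, 0 and 63 counts in S9-JAG1+ replicates 1, 2 and 3, at least 19.4 times higher in replicate 3. *Foxb1* had 0, 0 and 57 counts (at least 17.6 times). The FGF ligand genes *Fgf3*, with 0, 0 and 28 counts (at least 8.64 times), and *Fgf8*, with 3, 3 and 22 counts, were also highest in replicate 3. *Fgf4* (0, 0 and 17 counts) and *Sp5* (18, 13 and 84 counts, 4.32 times) were higher there too. Some genes of the list differed little between these libraries: *Evx1* had 1419, 1845 and 2199 counts, *Greb1* 5801, 7177 and 7680, and *Gdf11* 1504, 1507 and 1656. *Lin28a*, an RNA-binding protein gene of early progenitors, was highest in replicate 1, with 810, 336 and 352 counts (2.46 times). Against the other 4 populations, 4 of the 11 list genes tested were called higher in S9-JAG1+ cells and 0 lower (2.88% and 7.7% of all genes), with a median log2 fold change of 1.11, against -0.01 over all genes tested. *Wnt3a*, *Foxb1*, *Fgf3* and *Fgf4* did not pass the filter on low counts and enter neither the count nor the median. *Evx1* and *Greb1*, which differed little between these libraries, were among the genes tested.

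From a list of 25 genes of the segmentation clock and presomitic signalling, the Notch ligand gene *Dll1* had 7, 7 and 203 counts in S9-JAG1+ cells, 26.9 times higher in replicate 3 than in the next. *Pcdh8*, a protocadherin gene of the presomitic mesoderm and other tissues, had 3, 12 and 87 counts (6.86 times). The clock partners *Lfng* (89, 78 and 128 counts) and *Hes1* (941, 933 and 1239 counts) differed less. Genes that act at the next step, where a boundary forms, were near absence: *Mesp1* had 0, 1 and 2 counts, *Mesp2* 0, 0 and 4, and *Ripply1* none in any library of the series. Of the 21 list genes tested against the other 4 populations, 7 were called higher and 4 lower in S9-JAG1+ cells (2.88% and 7.7% of all genes), with a median of 0.75.

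Genes of formed somites and later paraxial mesoderm did not rise in S9-JAG1+ replicate 3 as a group. *Tcf15* had 82, 96 and 120 counts, *Meox1* 28, 15 and 26, and *Uncx* had none in any of the 3, whereas *Pax3* had 3, 8 and 35 (4.14 times) and *Foxc2* 178, 187 and 337 (1.7 times). Of the 14 genes of this list of 15 that were tested, 0 were called higher and 10 lower in S9-JAG1+ cells (2.88% and 7.7% of all genes), with a median log2 fold change of -2.06.

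Posterior *Hox* genes differed in which S9-JAG1+ libraries held them. *Hoxc13*, *Hoxc12* and *Hoxb13*, the most 5′ genes of clusters that are active in the tail, had 0, 0 and 134, 0, 0 and 35, and 1, 0 and 20 counts in S9-JAG1+ replicates 1, 2 and 3. Replicate 3 was at least 41.4 times higher for *Hoxc13* and at least 10.8 times higher for *Hoxc12*. Genes of the same cluster farther from its 5′ end had reads in all 3 libraries: *Hoxc9* had 79, 12 and 32 counts, *Hoxc10* 91, 10 and 109, and *Hoxc11* 9, 9 and 21. *Hoxd13* and *Hoxa13*, which mark the distal limb bud, had 18673, 23029 and 30568 counts and 2369, 2702 and 3625 counts, 1.26 and 1.27 times higher in replicate 3 than in the next. *Jag1* itself was 1.22 times and *Shh* 1.19 times higher there.

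**Figure D2:**
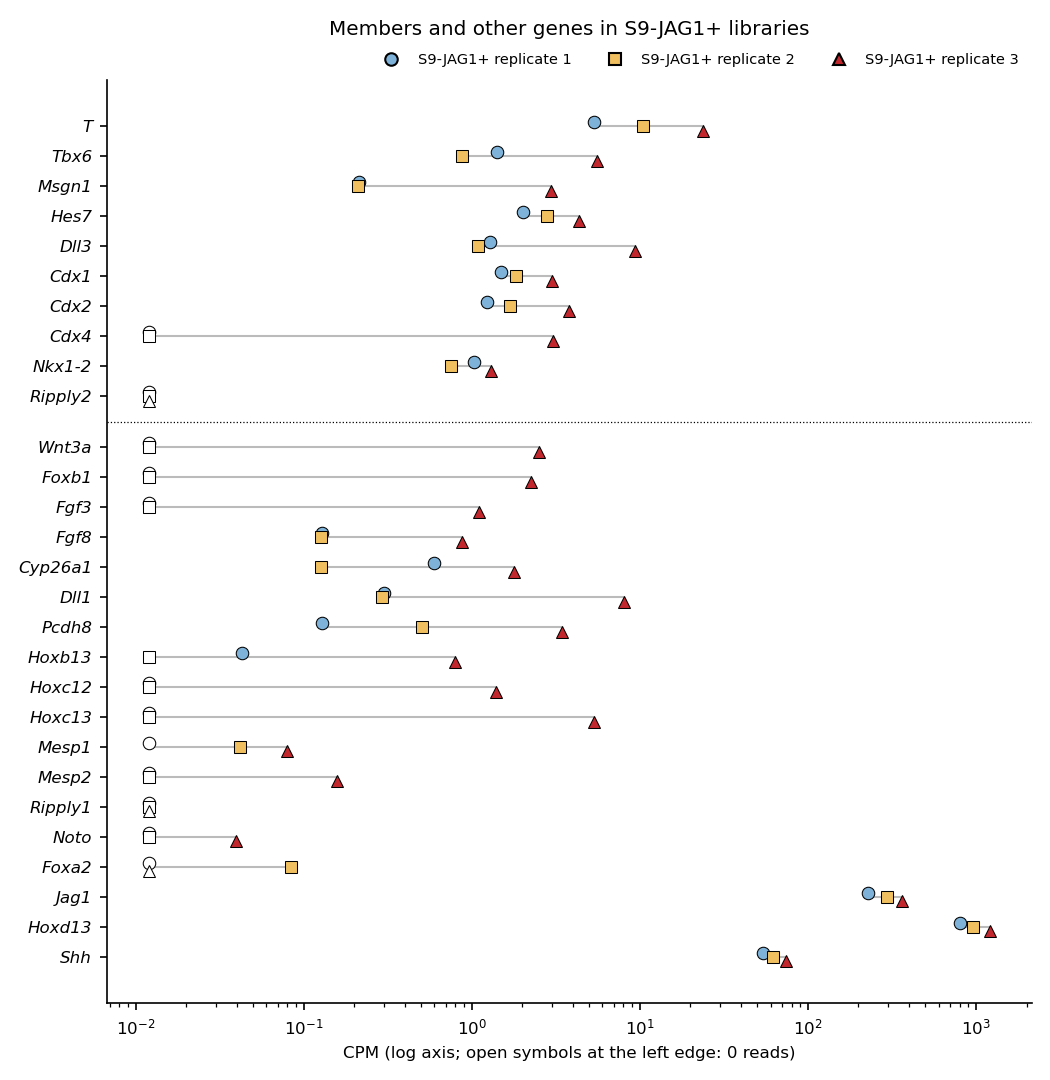
Level (CPM, log axis) in the 3 S9-JAG1+ libraries of the 10 members, above the dotted line, and of other genes of the lists and marker sets, below it; open symbols mark 0 reads. *Cdx4*, *Wnt3a*, *Foxb1*, *Fgf3*, *Hoxc12* and *Hoxc13* have reads in replicate 3 alone, while *Jag1*, *Hoxd13* and *Shh* differ little.

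Marker lists of other tissues were read in the same libraries. The defining notochord genes *Noto* and *Foxa2* had 1 and 0 counts in S9-JAG1+ replicate 3. The 8 notochord markers summed to 75.2, 88.1 and 99.2 CPM in the 3 S9-JAG1+ libraries, against 24.1 to 72.1 CPM elsewhere, most of it *Shh* (1265, 1488 and 1874 counts), which is also a limb bud gene. Of the 10 markers of hindgut and other endoderm, 6 were at 0 in replicate 3, *Foxa2*, *Hnf4a*, *Spink1*, *Ttr* and *Afp* among them, and the sums were 1.33, 1.8 and 2.42 CPM, against 0.805 to 5.95 CPM elsewhere. Neural tube markers summed to 2.65, 3.19 and 4.99 CPM, against 3.79 to 17 CPM elsewhere. *Olig2* had 0 counts in all 3 S9-JAG1+ libraries, and *Neurog2* had 0, 3 and 0. *Sox2* (3, 4 and 10 counts, 2.36 times), *Stmn2* (10, 13 and 31, 2.26 times) and *Pax6* (39, 32 and 62, 1.47 times) were highest in replicate 3. *Elavl3* (5, 13 and 8) was highest in replicate 2. The 11 ectoderm and ridge markers summed to 12.7, 6.54 and 7.29 CPM (7.27 to 24 CPM elsewhere), with *Cdh1* and *Wnt7a* at 0. Endothelial and blood markers summed to 25.8, 33.4 and 6.42 CPM. Some endothelial genes of that list were highest in replicate 3: *Cdh5* had 6, 5 and 31 counts (4.78 times), *Kdr* 11, 6 and 34 (2.86 times) and *Pecam1* 7, 4 and 11. *Tek*, the endothelial gene with the most reads there, differed little (73, 66 and 74 counts, or 3.13, 2.77 and 2.93 CPM).

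The lower sum in replicate 3 came from embryonic globins: *Hbb-y* had 229, 341 and 7 counts in S9-JAG1+ replicates 1, 2 and 3. The same gene was also low in S9-Pαhi replicate 2 (60 counts, against 345 and 256) and OCP replicate 2 (48 counts, against 495 and 377). Those 3 libraries shared other genes. *Ct55* had 240, 137 and 57 counts in S9-JAG1+ replicate 3, S9-Pαhi replicate 2 and OCP replicate 2 and at most 3 in the remaining libraries of these 3 populations. *Slc15a2* had 100, 47 and 108 there and at most 2 in the other libraries of these populations, although chondroblast replicate 1 had 152. S9-SCA-1+ replicate 3, the library with the most *Hbb-y* reads, also held both genes, at 44 and 30 counts, so that low globins did not go with them in every library. What sets these libraries apart is not in the labels, and its part in the members' levels was not tested.

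The list of 18 tail bud genes summed to 13418, 13945 and 16374 counts in S9-JAG1+ replicates 1, 2 and 3. Single genes differed more. Some 15 genes were all or none among S9-JAG1+ libraries for replicate 3 (at least 10 counts there and at most 1 in each of the other 2), against 6 for replicate 1 and 1 for replicate 2. Of the 15, 11 had at most 10 counts in every library outside the population, *Cdx4*, *Wnt3a*, *Foxb1*, *Hoxc12* and *Hoxc13* among them, a set chosen after its values were seen. *Fabp7* and *Avpr1b*, which are on none of the lists, were also among the 11. The 11 genes summed to 483 counts in S9-JAG1+ replicate 3 and to 1 and 0 in replicates 1 and 2. That difference is fixed by their choice, and nothing is read from it. The same choice bounds their counts outside the population. S9-Pαhi replicate 2 held 18 and OCP replicate 2 held 23, with reads from 8 and 10 of the 11 genes, and the other 9 libraries held 0 to 7 counts. The hindlimb gene *Pitx1* was highest in other libraries, S9-JAG1+ replicate 1 (551 counts), S9-Pαhi replicate 3 (766) and OCP replicate 1 (726), within their populations. By CPM, *Tbx4* and *Isl1* were highest in the same libraries within each of these populations, in OCPs by little. For *Tbx4*, replicates 1, 2 and 3 were at 19.7, 14.9 and 15.4 CPM in S9-JAG1+ cells. They were at 10.7, 8.88 and 21.5 in S9-Pαhi cells and 45.2, 38.4 and 42.7 in OCPs. For *Isl1* they were at 1.84, 0.922 and 0, at 0.285, 0.338 and 1.54, and at 1.95, 1.47 and 1.48 CPM. The highest *Isl1* level of all was in S9-SCA-1+ replicate 3 (7.66 CPM). *Hoxc9* was highest in the same libraries as *Pitx1* within these populations. *Hoxc10* (159 and 209 counts) and *Hoxc11* (51 and 26) were so in S9-Pαhi replicate 3 and OCP replicate 1. In S9-JAG1+ cells, both were instead highest in replicate 3.

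**Figure D3:**
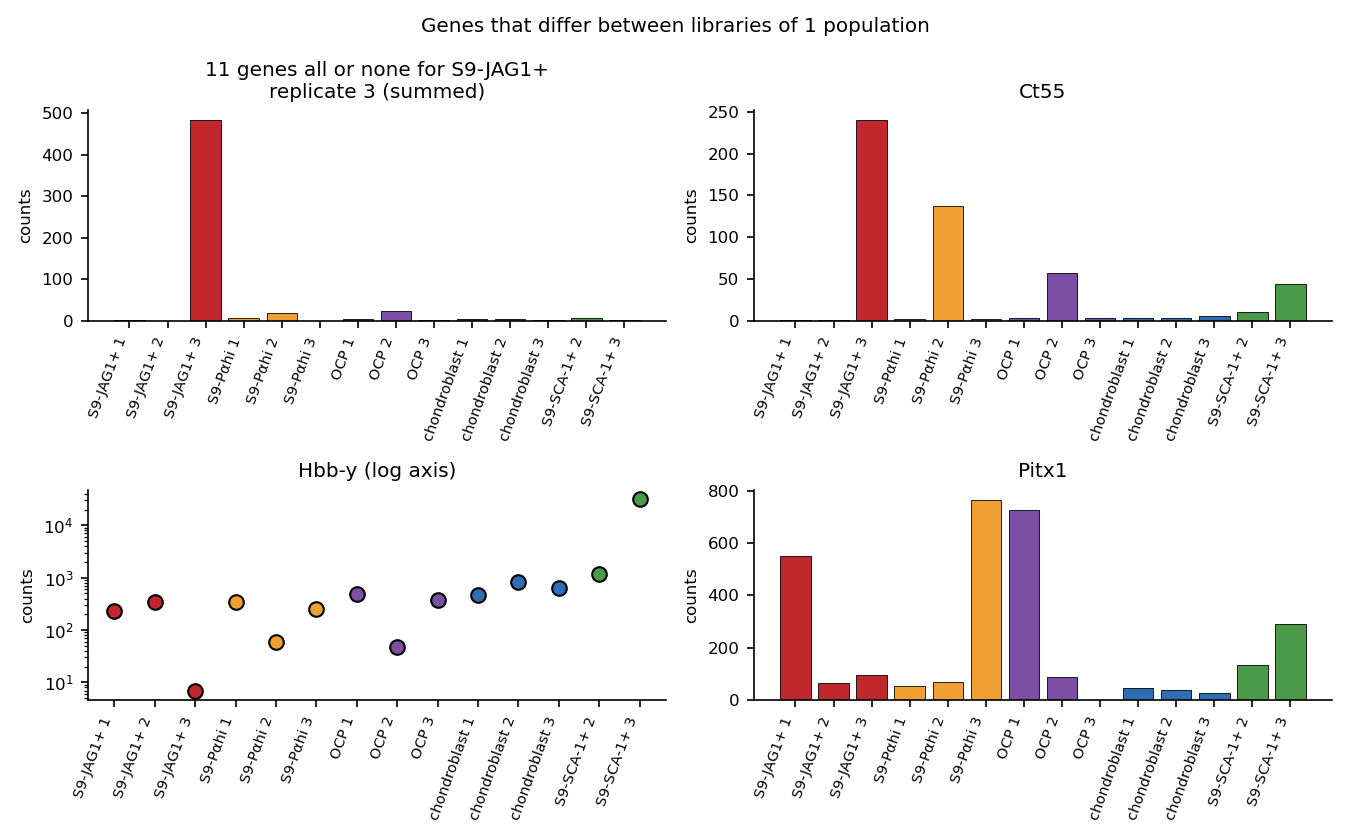
Counts per library of 11 genes summed that are all or none for S9-JAG1+ replicate 3 (a set chosen by these counts), of *Ct55*, of *Hbb-y* (log axis) and of *Pitx1*, coloured by population. S9-JAG1+ replicate 3, S9-Pαhi replicate 2 and OCP replicate 2 are high in *Ct55* and low in *Hbb-y*, S9-SCA-1+ replicate 3 has *Ct55* reads and the most *Hbb-y*, and *Pitx1* is high in other libraries.

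The comparisons without S9-JAG1+ cells did not choose the members and were tested with edgeR's quasi-likelihood test over all 15125 genes, with Benjamini-Hochberg adjustment. *Cdx2* and *Nkx1-2* passed the filter only through S9-JAG1+ libraries and were at or under 3 counts in all others. They are given no fold here and do not enter the counts of members below. *Cdx1* and *Dll3* were the members that changed. *T*, *Tbx6* and *Hes7* were not called in any of the 3 comparisons.

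S9-SCA-1+ cells, which had reads of the muscle precursor genes *Pax3* (12246 and 13985 counts) and *Lbx1* (7512 and 6544), were set against the mean of S9-Pαhi cells, OCPs and chondroblasts. Of the tested members above the 3-count limit, 1 was called higher (4.46% of all genes) and 1 lower (8.46% of all genes). *Cdx1* rose to 3.06 ± 0.413 CPM (SD, n = 2), with a log2 fold change of 2.39 ± 0.34 (SE, edgeR adjusted p = 6.94e-05), and both S9-SCA-1+ libraries were above all 9 of the others. That fold change takes the mean of the other populations on the log scale, and the ratio of plain CPM means was 3.21. *Dll3* fell by 2.60 ± 0.85 on the log2 scale (adjusted p = 0.0226), with 18 and 5 counts in S9-SCA-1+ cells. Its libraries overlapped with S9-Pαhi cells, and without S9-SCA-1+ replicate 3 the call was lost (log2 fold change -1.97, adjusted p = 0.197). *Tbx6*, at 10 and 13 counts, was lower by 1.06 ± 0.69 with an adjusted p of 0.226. *T* was at 9 and 12 counts (log2 fold change 0.65 ± 0.76, adjusted p = 0.514).

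Other genes of the lists were high in the same cells. *Sp5*, a WNT target of the tail bud and other sites, had 2418 and 2448 counts there, against a highest count of 84 in any other library (log2 fold change 9.27 ± 0.36, adjusted p = 2.23e-10). *Dll1* had 227 and 216 counts, a change of 4.50 ± 0.77 (adjusted p = 0.000319), and *Lfng*, a modifier of Notch receptors, changed by 4.21 ± 0.21 (adjusted p = 2.09e-09). In the list of 25 clock and presomitic genes, 6 of 21 tested were called higher and 4 lower, with a median of 0.07 against -0.02 over all genes. In the list of tail bud genes, 3 of 11 were called higher and 1 lower, and in the somite list 5 of 14 in each direction. In the somite list, *Pax3* was higher by 9.95 ± 0.26 (adjusted p = 2.91e-12) and *Uncx*, a gene of the posterior part of each somite, by 6.44 ± 0.49 (adjusted p = 7.1e-07), while *Pax1*, a gene of the sclerotome, was lower (17 and 24 counts, adjusted p = 0.00107). *Sp5*, *Dll1* and *Lfng* were thus far above their levels in the 3 other populations of this comparison, while *T* and *Tbx6* stayed within 13 counts.

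OCPs were also set against S9-Pαhi cells, *Sox9*-positive against *Sox9*-negative cells of 1 stage. Of the tested members above the 3-count limit, 1 was called higher in OCPs (3.48% of all genes) and 1 lower (1.36% of all genes). *Dll3* was higher in OCPs by 1.96 ± 0.73 (log2, SE), at 3 ± 0.757 against 0.755 ± 0.331 CPM (SD, n = 3 each), with an edgeR adjusted p of 0.094, just inside the limit. All 3 OCP libraries were above all 3 S9-Pαhi libraries, but leaving out single libraries ended the call in 10 of 14 cases, with adjusted p-values of 0.106 to 0.269 in those. The spread was estimated over all populations, S9-JAG1+ replicate 3 included. Without that library the adjusted p for *Dll3* was 0.00628, with a log2 fold change of 1.94. *Cdx1* fell by 1.64 ± 0.41 (adjusted p = 0.0192), and its libraries did not overlap. *Hes7* was at 0.929 ± 0.0236 CPM in OCPs and 1.34 ± 0.407 in S9-Pαhi cells (log2 fold change -0.52 ± 0.33, adjusted p = 0.311).

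Between chondroblasts and OCPs, 0 of the tested members above the 3-count limit were called higher (6.6% of all genes) and 1 lower (1.16% of all genes). *Cdx1* fell by 2.18 ± 0.56 (adjusted p = 0.0113), from 22, 6 and 21 counts in OCPs to 5, 6 and 1 in chondroblasts. *Dll3*, at 6.59 ± 1.84 CPM in chondroblasts (SD, n = 3), was above every OCP library, with a log2 fold change of 1.13 ± 0.62 that was under the fold limit and had an adjusted p of 0.197. With S9-JAG1+ replicate 3 left out of the fit that p was 0.0281, and the fold change of 1.10 was still under the limit. *Cdx1* and *Dll3* therefore ran in opposite directions in each of the 3 comparisons, the last of which did not pass the test for *Dll3*. The Notch receptor gene *Notch1* was higher in OCPs than in S9-Pαhi cells by 1.34 ± 0.22 (adjusted p = 0.000898), and the Notch target *Nrarp* was higher in chondroblasts than in OCPs by 1.36 ± 0.22 (adjusted p = 0.00048).

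**Figure D4:**
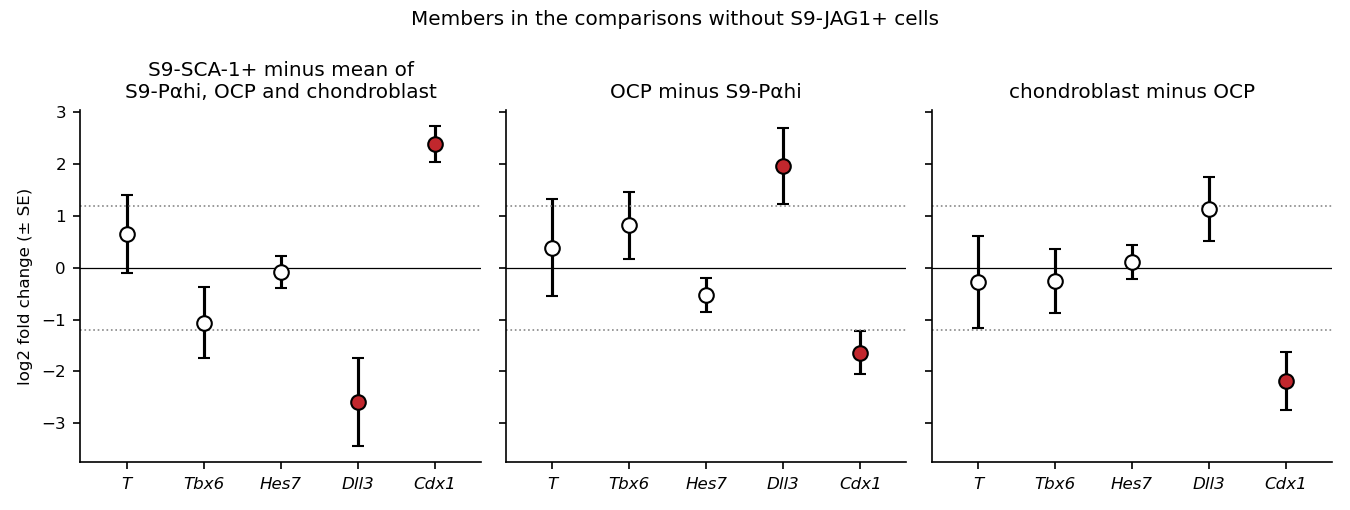
Log2 fold change with its standard error of the 5 members with reads above the limit in the 3 comparisons without S9-JAG1+ cells; red symbols are called, and dotted lines mark the fold limit of 1.2. *Cdx1* is called in all 3 and *Dll3* in the first 2, with opposite signs.

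Over the 14 libraries, the genes most like each member were listed by the correlation of log2 CPM, as a description of points that share 5 populations. *T* and *Cdx2* were each other's closest gene (r = 0.957, n = 14 libraries), and *Hes7* correlated with them at 0.891 and 0.901. *Nkx1-2* was closest to the keratin genes *Krt39* (0.974) and *Krt23* (0.957) and to *Mid1ip1* (0.965). *Hes7* was closest to *Ppef2* (0.936). *Tbx6* was nearest to *Cyp26a1* (0.853), the retinoic acid degrading enzyme of the tail bud, which had 14, 3 and 45 counts in S9-JAG1+ cells. *Dll3* was nearest to *Chdh* (0.916) and *Cdx1* to *Sac3d1* (0.967), and between *Dll3* and *Cdx1* the correlation was -0.696.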

How the data were processed

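Libraries were prepared from poly(A)+ RNA, and per the study's methods the single-end reads were aligned by the authors with STAR to mm10, with 1 position kept for each read. Reads starting in exons of RefSeq mRNAs were counted with QuasR's qCount. The deposited table holds these raw counts per gene for 14 libraries. Because reads with several positions were kept at 1 of them, near-identical genes can share reads. Of 24454 Entrez identifiers, 24374 were matched to symbols, and the other 80 held 0.358% of counts. Counts were tested with edgeR 4.0.16 (R 4.3.3): filterByExpr by population, TMM scaling (factors 0.957 to 1.06), 1 mean per population, a quasi-likelihood F test and Benjamini-Hochberg adjustment over 15125 genes. The study's p and fold limits were applied here to adjusted p-values. The standard error is the fold change divided by the root of F. The fit was tested on simulated counts. CPM use scaled totals, and log2 CPM for correlations used a prior count of 2. DESeq2 1.42.0, other scalings, no filter, a replicate block and leaving out libraries were tried as alternatives.

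The members and gene lists were chosen with earlier results of these data known. Named are all members and, from a rule that listed more genes than are named, called list genes (up to 4 a comparison, by fold change), the 4 list genes with the largest ratio between the top S9-JAG1+ libraries, the genes with the largest excess in a library, and the 3 most similar genes. Other marker and list genes named, among them *Cyp26a1*, *Fgf4*, *Foxc2*, *Shh* and *Hbb-y*, were picked after their values were seen. Gene models overlap antisense genes by GENCODE. Promoter windows came from RefSeq, and a protein table was not used here.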

Additional observations from a re-analysis of the deposited data

How the results depend on the processing

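The members' calls in S9-JAG1+ cells depended on 1 library. Leaving out single libraries gave 3 to 9 called members, the lowest without S9-JAG1+ replicate 3, and 4 were called (*T*, *Hes7*, *Cdx2*, *Nkx1-2*) when the 3 libraries with more than 3 *Hoxc13* reads were left out, an alternative chosen after seeing the data. *Dll3* then reversed, to log2 fold changes of -0.41 and -0.35 (-0.41 to 1.79 over single libraries left out). Single libraries left out gave 1 to 2 called members for S9-SCA-1+ cells and 1 to 2 for OCPs against S9-Pαhi cells, where an adjusted p of at most 0.05 also left 1. *T* met the limits in S9-SCA-1+ cells without the 3 libraries (1.22, adjusted p = 0.0883). Uncalled values near 0 changed sign: *T* in OCPs (-0.10 without S9-Pαhi replicate 1, -0.14 without OCP replicate 2), and in chondroblasts *T* (0.20 without OCP replicate 2, 0.21 without the 3 libraries), *Tbx6* (0.31 in both) and *Hes7* (-0.04 without chondroblast replicate 3). Over single libraries left out, these ran from -0.14 to 1.56 for *T* in OCPs and in chondroblasts from -0.72 to 0.20 for *T*, -0.57 to 0.31 for *Tbx6* and -0.04 to 0.21 for *Hes7*. The cause was not tested. With no fold limit, 7546, 8004, 3042 and 5263 genes were called in the 4 comparisons, in the order of the report. Genes in excess in S9-JAG1+ replicates 1, 2 and 3 numbered 75, 20 and 51 at 3 times, and 97, 21 and 46 at 30 counts. Spearman correlation shared 3 of the 21 most similar pairs. Other scalings, DESeq2 and no filter changed no member's direction.

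With a replicate block, 6 members were called in S9-JAG1+ cells (without *Dll3*, 1.06), and 2, 2 and 1 in the other comparisons. Correlations of same-numbered libraries' deviations ran from -0.181 to 0.308 (S9-JAG1+ replicate 1 with OCP replicate 1). Differently numbered libraries reached 0.413 (S9-Pαhi replicate 3 with OCP replicate 1). By these values the number alone does not show which libraries go together, and a block by number may not remove what libraries of different populations share. Whether they shared a source was not tested. The 3-count limit bounds what can be said of *Cdx2*, *Cdx4*, *Nkx1-2* and *Ripply2* outside S9-JAG1+ cells.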

Other observations

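Among genes of the tail bud and presomitic lists, *Eomes* and *Cer1* were higher in each chondroblast library than in any library of another population. So was *Notch1*, at 111, 122 and 154 CPM, against a highest level of 103 CPM elsewhere (OCP replicate 2). *Eomes*, a T-box gene of early mesoderm, had 183, 667 and 633 counts in chondroblasts and none in any OCP or S9-SCA-1+ library. *Cer1*, a secreted antagonist of the anterior presomitic mesoderm, had 19, 18 and 20 counts in chondroblasts and 0 to 2 in all other libraries. *Fgf8* was at 60, 111 and 31 counts in chondroblasts and 4, 9 and 4 in OCPs (log2 fold change 3.29 ± 0.66, edgeR adjusted p = 0.00258), and at 40 and 56 in S9-SCA-1+ cells.

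Apart from *Pitx1*, the orphan receptor gene *Nr1h5* was present by library and not by population, with 46 counts in S9-JAG1+ replicate 1, 136 in S9-Pαhi replicate 3, 101 in OCP replicate 1 and 223 in S9-SCA-1+ replicate 2, and 0 or 1 in all other libraries.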
